A study of Mus musculus with 8 samples.

Results

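The Rhox genes are homeobox genes, which encode DNA-binding transcription factors, and lie together in 1 cluster on the X chromosome. They are known for expression in reproductive tissue: Rhox5, formerly Pem, and Rhox8 are Sertoli cell genes of the testis, while Rhox10 belongs to the germ cells. Rhox5 is a classic androgen-responsive gene of Sertoli cells, the somatic cells that nurse the germ cells, and its promoters are known to be silenced by DNA methylation in many other tissues. The members were the non-control array probes named for Rhox1, Rhox5, Rhox6, Rhox8, Rhox9, Rhox10 or Rhox11. Of these 7 genes 4 had a probe, 1 each for Rhox5, Rhox6, Rhox9 and Rhox11, among 41174 probes in all. Rhox1, Rhox8 and Rhox10 were not analysed here, so the intended contrast of Sertoli cell with germ cell Rhox genes could not be made within the members. In its place, 5 further probes of the cluster were read: Rhox2, Rhox3, Rhox4e, a probe named 1700123J19Rik, which is a synonym of Rhox13, and LOC546296, described in the files as similar to Rhox7. Rhox13 is known as a germ cell gene, and it gives the contrast with Rhox5 below.

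Total testis RNA of male mice at postnatal day 8 was measured on 1-colour Agilent arrays, with 4 wild-type samples and 4 VRK1-deficient ones, labelled as biological replicates. VRK1 is a nuclear kinase of the vaccinia-related family. The VRK1-deficient mice carry a gene trap in an intron of Vrk1, made from the ES cell clone RRR178 and crossed repeatedly to C57BL/6, which leaves some full-length VRK1 and so is a hypomorph of 1 clone. The labels do not say how many animals each RNA came from, nor the strain or littermate status of the wild type. Every value below is a log2 signal minus the same array's 75th percentile, so 0 stands at that percentile, and every change is VRK1-deficient minus wild type.

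Both Vrk1 probes matched the labels in every array. The wild-type signals of the brighter probe were -0.20, -0.11, 0.59 and 0.35, and the VRK1-deficient ones were -3.97, -3.68, -3.58 and -4.17, a change of -4.00 (limma adjusted p = 0.000135). From 63.6% to 69.5% of probes stood well above background on an array, and no spot was saturated. Wild-type replicate 1 stood apart from its group: over the tested probes it correlated at 0.987 to 0.990 with the 4 VRK1-deficient arrays and at 0.970 to 0.986 with the other wild-type arrays. The Rhox values are therefore given with and without it. Replicates 1 and 2 of both genotypes shared 1 slide, replicates 3 and 4 the other. On each slide the wild type took positions 1 and 2 and the VRK1-deficient samples positions 3 and 4, so array position and genotype cannot be told apart.

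The probes through which each gene was read are shown because Rhox genes resemble one another, and some exist in several nearly identical copies. Each probe is 60 bases long. The Rhox5 and Rhox13 probes are given to 30 bases, and those of Rhox2, Rhox3 and Rhox9 in full, 5′ to 3′. The Rhox2, Rhox3 and Rhox9 probes hold an open forward reading frame throughout, as does the Rhox13 probe.
Rhox5: tggagtgagatggggagaaagatgcccttt
Rhox13: ggatttgcttacaaggggagagcttgcaag
Rhox2: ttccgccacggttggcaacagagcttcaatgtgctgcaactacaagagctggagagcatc
Rhox3: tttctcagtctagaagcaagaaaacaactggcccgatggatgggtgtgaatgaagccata
Rhox9: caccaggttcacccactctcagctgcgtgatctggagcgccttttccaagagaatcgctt
The transcripts listed for the Rhox5, Rhox6, Rhox9 and Rhox11 probes belonged to 1 gene each in RefSeq, whereas the Rhox3 probe was listed for both Rhox3a and Rhox3f and the Rhox4e probe for 4 genes, Rhox4a, Rhox4b, Rhox4e and Rhox4g. The Rhox2 probe matched the transcript of Rhox2a, 1 of many close copies of Rhox2. Which copy gave the Rhox2, Rhox3 or Rhox4 signal is therefore uncertain. In the files' mouse build, mm7, the Rhox6 probe lay at chrX:32922020-32922079, the Rhox9 probe at chrX:32993222-32993281, the Rhox11 probe at chrX:33168969-33169028 and the Rhox13 probe at chrX:33214060-33215370. The files gave no position for the Rhox5 probe.

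Rhox5 was read well above background on all 8 arrays, and its signal varied widely in the wild type. The wild-type signals were 0.91, 1.92, 1.89 and 2.92 in replicates 1 to 4, and the VRK1-deficient signals were 0.69, 0.83, 0.40 and 1.39. The lowest wild-type array, replicate 1, lay inside the VRK1-deficient range, and 3 of 4 VRK1-deficient arrays were below it. The wild-type mean was 1.91 ± 0.82 (SD, n = 4). That of the VRK1-deficient group was 0.83 ± 0.42 (SD, n = 4). The change was -1.08 (SE 0.38, 95% interval -1.95 to -0.22), or 47.3% of the wild-type signal, with an interval from 25.9% to 86.1%. It did not pass the test (limma adjusted p = 0.111, unadjusted p = 0.0198 by limma over 26958 tested probes). Between the highest and the lowest wild-type array Rhox5 differed 4.04-fold, and its wild-type SD was larger than that of 97.3% of tested probes. In total testis RNA, fewer cells of a type and less RNA per cell cannot be told apart.

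The Rhox5 result turned on wild-type replicate 1. Without that array the change was -1.42 and passed the test (limma adjusted p = 0.0132), and all 4 VRK1-deficient arrays were below each of the 3 remaining wild-type arrays. Leaving out that array also raised the calls over the whole table, from 3.66% to 28.4% of tested probes, so a call there is common. Rhox5 was not called when another array was left out in its place (limma adjusted p from 0.148 to 0.239). A call was rare in those fits, at 0.0111% to 0.252% of tested probes. Within slide 1 the change was -0.65 and within slide 2 it was -1.51, the same direction in both.

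**Figure D1:**
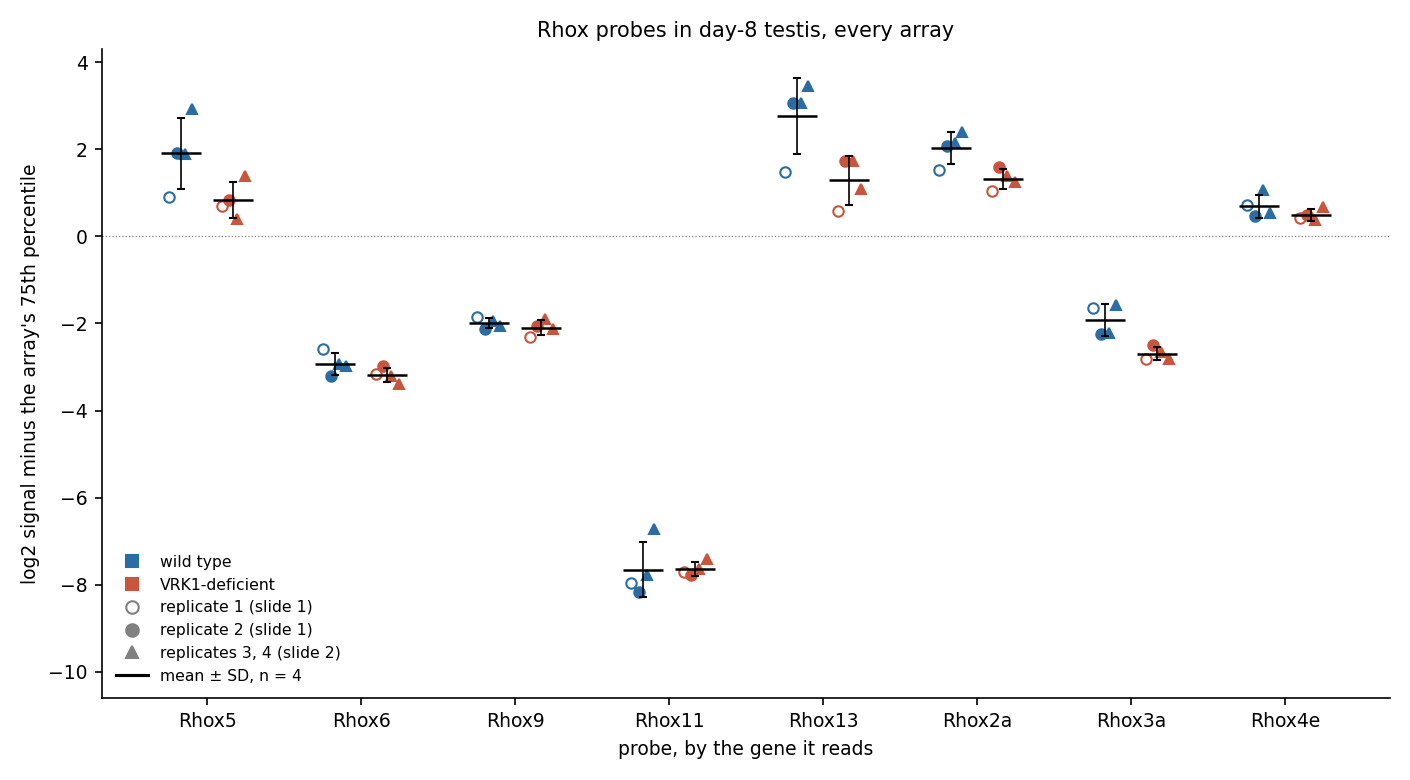
Log2 signal minus the array's 75th percentile (vertical axis) for 8 Rhox probes (horizontal axis), with 1 point per array, wild type in blue and VRK1-deficient in red, bars for the mean and SD of 4 arrays, open circles for replicate 1 and triangles for slide 2. Rhox5, Rhox13 and Rhox2a reach lower values in the VRK1-deficient arrays with wild-type replicate 1 nearest to them, Rhox3a separates the genotypes without overlap, and Rhox11 was not well above background on any array.

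The other members differed little between the genotypes. No member was called: 0 of the 3 tested members had a limma adjusted p under the threshold of 0.05, where 3.66% of all tested probes did, and 1 of 3 had an unadjusted p under 0.05, against 28.8% of all. Rhox6 and Rhox9, placental homeobox genes also known as Psx1 and Psx2, were well above background on all arrays. Rhox6 read -2.58, -3.21, -2.94 and -2.98 in wild type and -3.16, -2.98, -3.21 and -3.38 in VRK1-deficient testes. These ranges overlap, and the change of -0.26 (SE 0.15, 95% interval -0.60 to 0.09) was not called (limma adjusted p = 0.300). It was -0.14 without wild-type replicate 1. Rhox9 read -1.85, -2.12, -1.95 and -2.06 in wild type and -2.32, -2.05, -1.90 and -2.12 in VRK1-deficient testes. Its change was -0.10 (SE 0.13, limma adjusted p = 0.613), or -0.05 without wild-type replicate 1, and the 95% interval from -0.38 to 0.18 leaves between 76.6% and 113% of the wild-type signal. The signs of the Rhox6 and Rhox9 changes turned under another background correction, to 0.03 and 0.01 with normexp. The Rhox11 probe was not well above background on any of the 8 arrays, with measured means of -7.66 and -7.64, so neither a fold change nor a test is given for it.

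Among the other probes of the cluster, 4 were tested, and the VRK1-deficient mean was the lower in all 4, but 0 were called, where 1.98% of all tested probes were called lower. An unadjusted p under 0.05 was reached by 3 of them, and over all tested probes 14.8% reached it in the lower direction, with a median change of 0.04 and 45.5% of changes below 0. Rhox13 had the largest difference of the cluster. Its wild-type signals were 1.48, 3.07, 3.07 and 3.46 and its VRK1-deficient signals 0.58, 1.73, 1.73 and 1.10. As for Rhox5, wild-type replicate 1 fell within the VRK1-deficient range and the other 3 wild-type arrays were above all of it. The change was -1.49 (SE 0.43, 95% interval -2.46 to -0.51), or 35.7% of wild type, with a limma adjusted p of 0.0736, and it was -1.92 without wild-type replicate 1 (limma adjusted p = 0.00438).

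Rhox2a, 1 copy of the Rhox2 group, read 1.53, 2.07, 2.15 and 2.41 in wild type and 1.05, 1.59, 1.38 and 1.26 in VRK1-deficient testes. Only VRK1-deficient replicate 2 reached above the lowest wild-type array, which again was replicate 1. The change was -0.72 (SE 0.20, limma adjusted p = 0.0647), and -0.89 without that array (limma adjusted p = 0.00637). Rhox3a was the only 1 of the 7 tested Rhox probes whose genotypes did not overlap, where 7.30% of all tested probes were lower without overlap. It read -1.65, -2.25, -2.21 and -1.57 in wild type and -2.81, -2.50, -2.65 and -2.82 in VRK1-deficient testes. Its wild-type replicate 1 was among the 2 highest arrays, unlike in Rhox5, Rhox13 and Rhox2a. The change was -0.78 (SE 0.18, 95% interval -1.19 to -0.37), just outside the threshold at a limma adjusted p of 0.0509, and -0.69 (limma adjusted p = 0.0266) without wild-type replicate 1.

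Rhox4e, read together with its copies, had the smallest difference of these. Its signals were 0.72, 0.47, 1.06 and 0.54 in wild type and 0.42, 0.49, 0.38 and 0.68 in VRK1-deficient testes, which overlap, with a change of -0.20 (SE 0.15, limma adjusted p = 0.396), or -0.19 without wild-type replicate 1. The LOC546296 probe, at chrX:32316062-32316121 in mm7, was well above background on 3 of the 4 wild-type arrays but on 0 of the 4 from VRK1-deficient mice. Its wild-type signals were -5.20, -5.23, -5.98 and -5.37 and its VRK1-deficient signals -6.13, -6.17, -6.36 and -5.12. The groups overlap, and VRK1-deficient replicate 4 was the highest of all 8 arrays. The probe was too dim for the test, and its wild-type mean was at least 1.05-fold above the level that the VRK1-deficient arrays allow. Here the bound takes, per array, the higher of the dim probe's signal and the lowest signal of any probe well above background.

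**Figure D2:**
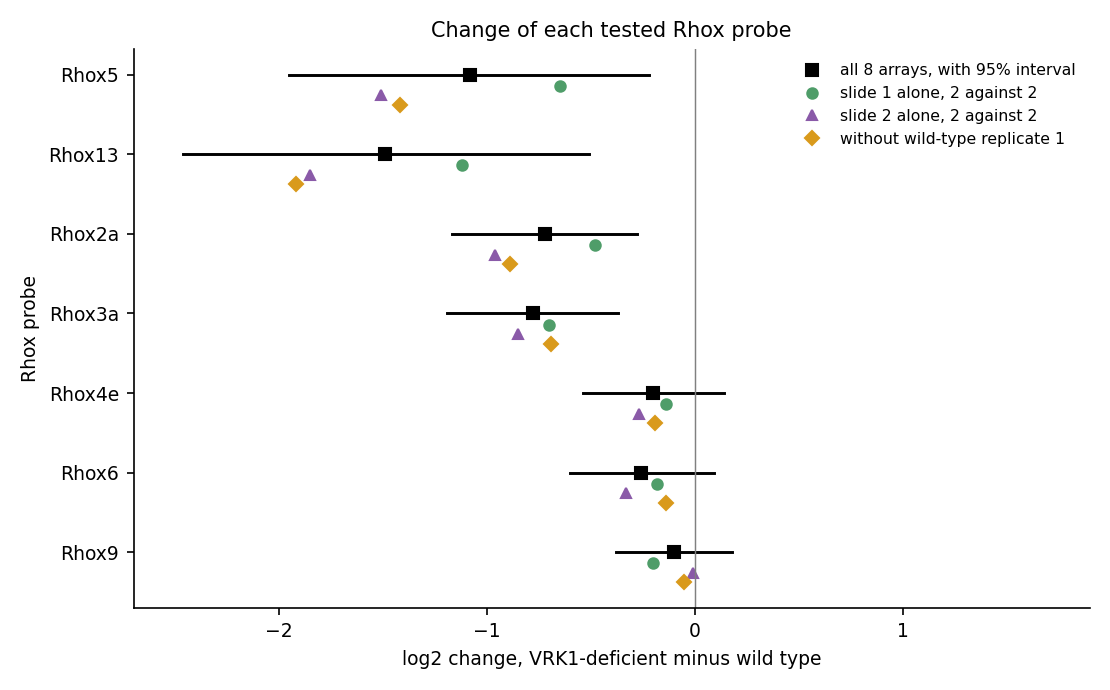
Log2 change, VRK1-deficient minus wild type (horizontal axis), of the 7 tested Rhox probes (vertical axis), as black squares with 95% intervals for all 8 arrays, and as coloured points for each slide alone and without wild-type replicate 1. Rhox5, Rhox13, Rhox2a and Rhox3a keep their intervals below 0, and Rhox4e, Rhox6 and Rhox9 span it.

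The question of Sertoli cell against germ cell expression was taken up by setting Rhox5 and Rhox13 beside marker genes on the same arrays. Most of the 20 Sertoli cell markers had changes of the opposite sign to Rhox5. Of the 20, 18 were higher and 2 lower in VRK1-deficient testes, and the median change was 0.42 against 0.04 over all tested probes. None was called (limma), where 3.66% of all tested probes were. An unadjusted p under 0.05 (limma) was reached by 12 in the higher direction and 1 in the lower. Over all tested probes 28.8% reached it in either direction, and 14.8% in the lower. Fshr, the receptor for follicle-stimulating hormone, changed by 1.09 (limma adjusted p = 0.0598), and Amh, the hormone of immature Sertoli cells, by 1.19 (limma adjusted p = 0.115). The mean over the list ran from 2.21 to 3.02 in wild type and from 2.86 to 3.13 in VRK1-deficient testes, with wild-type replicate 1 highest of its group. The gap between Rhox5 and the Sertoli list mean thus shifted from -2.11, -0.63, -0.33 and 0.59 in wild type to -2.44, -2.09, -2.47 and -1.68 in VRK1-deficient testes, a difference of -1.55. It was -2.05 without wild-type replicate 1, -0.89 on slide 1 and -2.20 on slide 2, and no test was made of it.

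The germ cell markers were lower, as Rhox13 was. All 13 with a probe had a negative change, with a median of -1.05. Of the 13, 2 fell past the threshold, where 1.98% of all tested probes were called lower. These were the Tudor-domain genes Tdrd1 (-1.11, limma adjusted p = 0.0498) and Tdrd9 (-1.47, limma adjusted p = 0.0471), which act in the piRNA pathway. The germ cell list mean ran from 0.30 to 1.53 in wild type, lowest in replicate 1, and from -0.32 to 0.41 in VRK1-deficient testes. The gap between Rhox5 and that mean was similar in the 2 group means but varied between arrays. It was 0.60, 0.72, 0.35 and 1.49 in wild type (SD 0.49). In VRK1-deficient testes it was 1.01, 0.43, 0.01 and 1.49 (SD 0.65), a difference of -0.06. For Rhox13 the same gap differed by -0.46 between the genotypes (-0.62 without wild-type replicate 1). It ran from 1.17 to 2.03 in wild type (SD 0.38) and from 0.90 to 1.35 in VRK1-deficient testes (SD 0.21). The Rhox5 change of -1.08 thus lay close to the germ cell list's mean change of -1.02 and was opposite in sign to the Sertoli list's 0.47. Without wild-type replicate 1 these were -1.42, -1.30 and 0.63. The part of the lower germ cell marker signal in the Rhox values was not tested. Within arrays, the gap between Rhox5 and Rhox13 differed by 0.40 between the genotypes, with overlapping values from -1.18 to -0.54 in wild type and from -1.34 to 0.29 in VRK1-deficient testes.

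**Figure D3:**
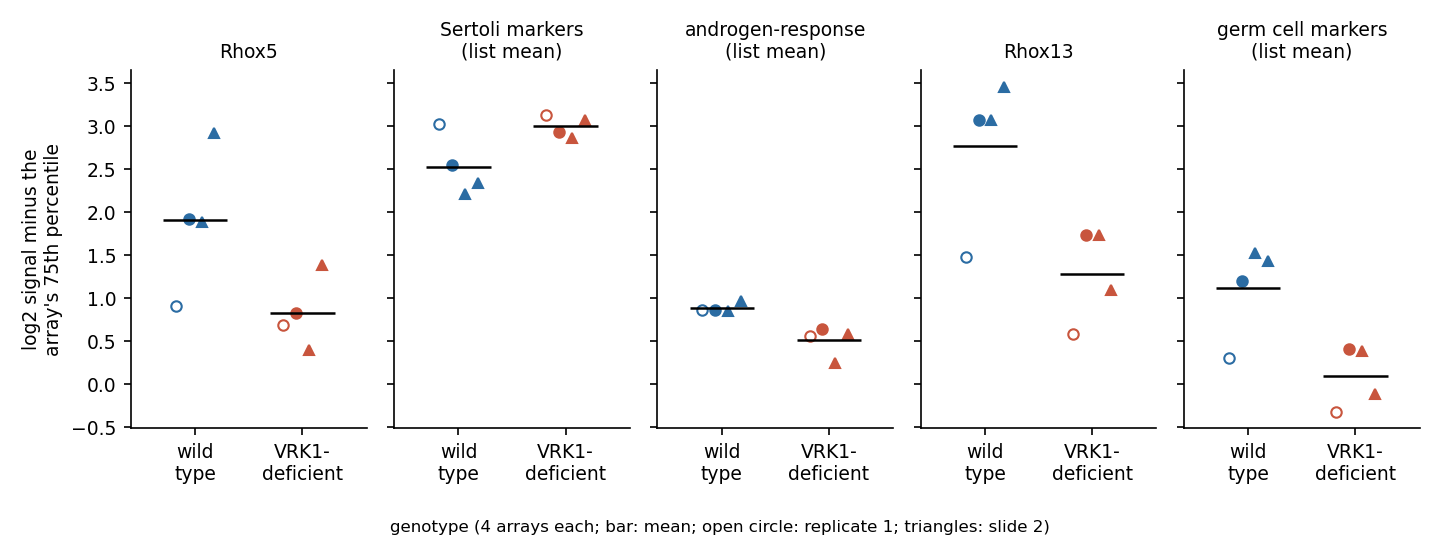
Log2 signal minus the array's 75th percentile (vertical axis) by genotype (horizontal axis) for Rhox5, Rhox13 and the means of 3 gene lists, 1 point per array, with bars for the mean of 4 arrays, open circles for replicate 1 and triangles for slide 2. Wild-type replicate 1 is the lowest wild-type array for Rhox5, Rhox13 and the germ cell list and the highest for the Sertoli list, while in the androgen-response list the 4 wild-type arrays lie between 0.85 and 0.97.

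Markers of the other testis cells were read on the same arrays. The 8 markers of Leydig cells, the cells that make testosterone, had a median change of 0.36, with 6 higher and 2 lower. None was called (limma), where 3.66% of all tested probes were. An unadjusted p under 0.05 (limma) was reached by 4, all higher. Over all tested probes 28.8% reached it in either direction, and 14.8% in the lower. The list means ran from 1.01 to 1.64 in wild type and from 1.44 to 1.87 in VRK1-deficient testes. The median was 0.18 without scaling between arrays. Hsd17b3, an enzyme of testosterone synthesis, had the largest change of this list, at 1.55 (limma adjusted p = 0.0559), with no overlap between the genotypes. The 2 lower markers were Star at -0.12 (limma adjusted p = 0.861) and Cyp17a1 at -0.09 (limma adjusted p = 0.824). Nr5a1, at 0.81 (limma adjusted p = 0.076), was also counted among the Sertoli cell markers. Which testis cells gave the Hsd17b3 and Nr5a1 signals was not tested. The 6 peritubular myoid markers had a median change of -0.04, with 4 lower and 2 higher. Of the 6, 1 was called, where 1.98% of all tested probes were called lower. This was Cnn1, which fell by 0.99 on the log2 scale (limma adjusted p = 0.0446), while the others ran from -0.08 (Myh11) to 0.33 (Des). The list means were 3.63 to 3.85 in wild type and 3.42 to 3.86 in VRK1-deficient testes. The 6 macrophage markers were all slightly higher, with a median of 0.09 that turned to -0.09 without scaling between arrays, and none called (limma, 0 at an unadjusted p under 0.05). The epididymis is another site of Rhox5 expression. Of its 8 markers 6, among them Lcn5, Lcn8 and Gpx5, which belong to the mature organ, were not well above background on any array, and the other 2, cystatin genes, were so on all 8. The part of epididymal RNA in the Rhox5 signal was not tested. Cst8 rose by 0.71 (limma adjusted p = 0.0454) and Cst11 changed by 0.83 (limma adjusted p = 0.0505).

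The genes known to act on Rhox5 did not share its direction as a group. Of 11 such regulators, 6 were lower and 5 higher, with a median of -0.14, and 1 was called, where 3.66% of all tested probes were. Gata4, a GATA factor of Sertoli cells, changed by 0.84 (limma adjusted p = 0.154) and Gata1 by -0.14 (limma adjusted p = 0.76). Among the DNA methylation genes, Dnmt3b, a de novo methyltransferase that is also a marker of differentiating spermatogonia, fell by 1.05 (limma adjusted p = 0.0473). Dnmt3a changed by -0.74 (limma adjusted p = 0.0578) and Dnmt3l by -0.76 (limma adjusted p = 0.0816), while Dnmt1, the maintenance enzyme, changed by -0.21 (limma adjusted p = 0.257).

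Sertoli cell genes known to respond to androgen or to Rhox5 leaned the way of Rhox5. Of the 10 tested, 8 were lower and 2 higher, with a median change of -0.47 against 0.04 over all tested probes, and 2 were called, both lower, where 1.98% of all tested probes were called lower. Gpd1, a glycerol phosphate dehydrogenase, fell by 1.08 (limma adjusted p = 0.0407), though its dimmer probe, at -0.65, was not called (limma adjusted p = 0.0943). Tjp3, a tight junction protein, fell by 1.56 (limma adjusted p = 0.0482). The list mean ran from 0.85 to 0.97 in wild type and from 0.25 to 0.64 in VRK1-deficient testes, and its difference of -0.38 was the same without wild-type replicate 1. Ins2, insulin 2, a known target of Rhox5, changed by -0.71 (limma adjusted p = 0.0616) with its other probe at -0.72 (limma adjusted p = 0.0608). Unc5c, a netrin receptor gene that Rhox5 is known to repress, was dim, well above background in 1 wild-type and 3 VRK1-deficient arrays, and changed by 0.92 (limma adjusted p = 0.0892). Serpina5 was the other higher gene, at 0.61 (limma adjusted p = 0.0875), and Cldn3, a claudin of the blood-testis barrier, changed by -0.70 (limma adjusted p = 0.0816).

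The calls were near the threshold. Of the 15 genes called in the lists or among the patterns nearest Rhox5, none stayed past it when the array left out was not wild-type replicate 1 but 1 of the remaining 7 (limma adjusted p from 0.0599 to 0.153), and all 15 remained called without wild-type replicate 1.

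The genes beside the Rhox cluster leaned the other way. In mm7 the Rhox probes with a position spanned chrX:32005329-33215370. Within it and 500000 bases to either side, 37 probes of 20 non-Rhox genes were tested, of which 7 were lower, with a median change of 0.29. Of these, 2 were called and both rose, Rpl39, a ribosomal protein gene (0.77, limma adjusted p = 0.0344), and Upf3b, a factor of nonsense-mediated decay (0.59, limma adjusted p = 0.0473). The share called in either direction over all tested probes was 3.66%. Over the X chromosome as a whole 952 probes were tested, with a median of 0.10, and 15 were called lower and 35 higher. Among all 26958 tested probes 535 were called lower and 451 higher. X-linked germ cell genes outside the cluster were mostly lower: 12 of 13 tested, with a median of -0.92 (-0.51 with normexp). Of the 13, 2 were called, both lower, where 1.98% of all tested probes were called lower. These 2 were Esx1, another X-linked homeobox gene of the germ line and placenta, which fell by 2.35 (limma adjusted p = 0.0473), and Tex16, which fell by 1.39 (limma adjusted p = 0.0498).

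Homeobox genes of the gonad and germ line outside the Rhox family went both ways. Of 11 tested, 6 were lower and 5 higher, and beside Esx1 the call fell on Duxbl1, which rose by 0.94 (limma adjusted p = 0.0473). Calls in either direction made up 3.66% of all tested probes. Lhx8, an oocyte and germ cell factor, changed by -2.16 (limma adjusted p = 0.0528) and Nobox, another oocyte factor, by -1.46 (limma adjusted p = 0.0568). The medians were -0.23 for these genes, -0.26 for the 3 tested Rhox members, which turned to 0.01 with normexp, and -0.75 for the other 4 Rhox probes.

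The genes whose pattern over the 8 arrays was most like that of Rhox5 were not Rhox genes. Likeness was measured as the root mean square difference of log2 signals, each centred on its own mean, over 13793 genes well above background on all arrays. Otop2, a proton channel gene, was nearest at 0.19, followed by Inca1 at 0.26, Lpar3, a lysophosphatidic acid receptor, at 0.28, BC051142 at 0.29 and Ccdc150 at 0.32. Since these 5 genes were chosen for a pattern that includes the genotype difference of Rhox5, no result is read from tests of their changes. This includes the call of Lpar3 counted above. Rhox2a ranked 198th at 0.45 and Rhox13 1393rd at 0.57, while Rhox6 and Rhox9 stood at 0.81 and 0.80.

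The promoters of Rhox5 and Rhox13 are shown because these 2 genes had the largest differences of the cluster. They are the 250 bases before the RefSeq start site on the plus strand, in build GRCm38.p6, at chrX:37754358-37754607 for Rhox5 and chrX:38120590-38120839 for Rhox13. Which of the Rhox5 promoters this stretch belongs to, and in which cells it is used, was not tested. Capitals mark AGAACA or its reverse complement TGTTCT, the half-site of a steroid hormone response element.
Rhox5: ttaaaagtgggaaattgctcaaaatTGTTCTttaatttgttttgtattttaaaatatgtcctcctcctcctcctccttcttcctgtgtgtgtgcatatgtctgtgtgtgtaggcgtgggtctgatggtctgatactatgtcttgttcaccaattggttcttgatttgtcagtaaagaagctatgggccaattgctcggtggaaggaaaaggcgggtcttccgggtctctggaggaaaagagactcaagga
Rhox13: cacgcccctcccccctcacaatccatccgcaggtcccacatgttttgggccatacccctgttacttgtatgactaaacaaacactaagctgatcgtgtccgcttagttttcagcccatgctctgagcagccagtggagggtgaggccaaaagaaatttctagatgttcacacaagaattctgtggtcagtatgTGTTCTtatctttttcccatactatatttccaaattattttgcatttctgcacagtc
Each held 1 half-site. At least 1, on either strand, was held by 16.1% of 32851 promoters of the same length and by 9 of 28 Rhox entries, many of them near-identical copies. The Rhox5 and Rhox13 promoters also held 4 CpG dinucleotides each, the letters that DNA methylation acts on. The median was 6 over all promoters and 4.5 over the Rhox entries. The Rhox10 promoter held 8 and the Rhox1 promoter 0. Rhox6, Rhox8 and Rhox9 had no entry in the promoter table.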

How the data were processed

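Total RNA of 8 day-8 testes samples was labelled with Cy3 and hybridized to Agilent mouse arrays. Per the labels, Feature Extraction 9.5.3.1 gave the signals. The authors deposited background-subtracted intensity values per spot (gProcessedSignal), and their value table held the same intensities, with no scaling between arrays. The array number per group, 4, limits the precision. From 58 to 134 outlier spots per array were left out, and spots of a probe were averaged. Log2 intensities deposited by the authors were scaled to each array's 75th percentile. The 26958 probes that at least 4 of the 8 arrays read well above background were fitted by genotype with limma 3.58.1 in R 4.3.3, with Benjamini-Hochberg adjustment over all of them and a threshold of 0.05. Each limma p-value sets the genotype difference against the spread between samples within a genotype, moderated over all tested probes. Whether that spread lies between single animals or pools is not given by the labels.

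Of several probes of a gene the one with the highest mean signal was used. Symbols were updated through RefSeq accessions, symbols or synonyms for 22951, 6659 and 3109 probes, and 8455 kept the name in the files. Named genes were the Rhox genes, Vrk1, the called list members with up to 4 others of largest change per list, and the 5 patterns nearest Rhox5. Other genes named were chosen after their values were seen: Gata1, Dnmt1, Serpina5, Rpl39 and Upf3b. The members, lists and tests were chosen with earlier results of these data known. The scripts were tested on simulated data. Lists of spermatogonial markers entered the analysis too. Of 15 undifferentiated markers tested, 8 were lower and 7 higher, with 2 and 1 called. Of 8 differentiating markers 7 were lower and 1 higher, with 2 called, both lower. Over all tested probes 3.66% were called. Results for 1 item withheld from the text are not reported here. The methods' t-test, other scalings, filters, a slide or replicate block and left-out arrays were tried as alternatives.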

Additional observations from a re-analysis of the deposited data

Results flagged for a closer look

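In 3 of 48 groups of 4 arrays, 1 array lay far from the other 3, by Dixon's test; chance alone gives about 1 in 20 such groups. The wild-type means of the differentiating spermatogonia markers and of the other homeobox genes were lowest in replicate 1, at 2.00 and -1.25, with a gap of 0.842 and 0.968 of the group's range. This is the array that lay nearest the VRK1-deficient range for Rhox5, Rhox13 and Rhox2a. The wild-type mean of the androgen-response list was highest in replicate 4, at 0.97, with a gap of 0.904 of a narrow range.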

How the results depend on the processing

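The changes of Rhox5, Rhox13, Rhox2a, Rhox3a and Rhox4e stayed negative under all 20 alternatives, from -1.51 to -0.65, -1.92 to -1.12, -0.96 to -0.48, -0.96 to -0.46 and -0.38 to -0.08. Their limma adjusted p ranged from 0.0132 to 0.539, 0.00438 to 0.552, 0.00637 to 0.551, 0.0266 to 0.50 and 0.302 to 0.725. Rhox6 and Rhox9 turned sign under normexp, to 0.03 and 0.01. Leaving out 1 array gave Rhox5 changes from -1.42 to -0.74. No value exists for Rhox8 or Rhox10.

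In the main fit 0 Rhox members and 0 of the 7 tested Rhox probes were called (limma), where 3.66% of all tested probes were. An unadjusted p under 0.05 (limma) was reached by 4 of the 7, against 28.8% of all tested probes. With normexp, with the unscaled value table and with a trended, robust variance 2 Rhox probes were called. The shares of all tested probes called there were 5.23%, 3.40% and 7.10%. The Rhox count was 1 with the filter on all 8 arrays, on slide 2 alone and with gene means. The shares called over everything tested there were 5.70%, 3.93% and 5.89%. With 1 array left out the Rhox count was 0 to 4, and 0 to 1 for members. The 4 calls came without wild-type replicate 1, where 28.4% of all tested probes were called. With any other array left out that share was 0.0111% to 0.252%.

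Over all tested probes 986 were called. The count was 17 with no filter, 641 with a slide block, 3 on slide 1 alone, 162 by the methods' t-test, 1915 with a trended, robust variance, and 3 to 7659 with 1 array left out. Without scaling, 852 calls were lower and 64 higher, against 535 and 451, and the median of all changes moved to -0.14. It was 0.12 with normexp, whose calls were 644 lower and 767 higher.

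The replicate numbers were not taken to pair the samples, since same-numbered deviations correlated at 0.468, 0.073, 0.188 and -0.138. With the replicate block Rhox5 stood at -1.08 (limma adjusted p = 0.0423). There 1 member and 3 Rhox probes were called, and 2280 probes in all, or 8.46% of those tested.

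Among 64 other named genes, 952 of 1276 recomputed values kept direction and side of the threshold, 176 lost the call, 139 gained it and 9 turned sign. The last were uncalled: Acta2 at 0.01 with gene means, C1qa at -0.04, Cd68 at -0.09, Csf1r at -0.09 and Mylk at -0.11 without scaling, Mylk at -0.01 with quantile normalization, Cd68 at -0.06 without wild-type replicate 2 (-0.06 to 0.16 over the arrays left out), and Myh11 at 0.02 without replicate 4 of either genotype (-0.18 to 0.02).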
